A study of Rattus norvegicus with 18 samples.

Results

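The genes described here are 9 calcium-binding and lectin genes of tissue injury: 5 genes of the S100 family (S100a4, S100a6, S100a10, S100a11 and S100b), 3 annexins (Anxa1, Anxa2 and Anxa3) and galectin-1 (Lgals1). They were taken by gene symbol from a table of 30735 rows, in which each of the 9 symbols had 1 row. The libraries were made from the cortex of Sprague-Dawley rats after subarachnoid hemorrhage (SAH), bleeding into the space around the brain, produced here by pushing a monofilament through an artery inside the skull. Group SAH 1d (n = 6) was sampled 1 day and group SAH 7d (n = 6) was sampled 7 days after the bleed, and the sham group (n = 6) had the same surgery without the perforation. All rats of the SAH groups were thus operated animals compared with operated controls. The labels and the methods of the study give no sampling day for sham, so its time since surgery is not known. The labels call the tissue bilateral cortex, whereas the methods of the study describe the cortex on the operated side, and neither source gives the sex of the rats. Total counts per library ran from 27641629 to 33325330 in sham, from 27270026 to 38271014 in SAH 1d and from 28867675 to 33107697 in SAH 7d. The lowest count of any of the 9 genes was 19 reads, for S100a4 in sham-5, and all 9 passed the filter on low counts that left 18444 genes for testing. All of 8 neuron markers were detected in every group, with a summed level of 7389 to 10580 CPM (counts scaled to library size) in sham. These markers are not limited to cortex, so they cannot tell it from other brain regions.

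S100 proteins are small calcium sensors that change shape when calcium rises and then bind target proteins, among them annexins. Annexins bind the lipids of membranes in the presence of calcium and act in membrane repair, in membrane traffic and, for annexin A1, as an anti-inflammatory signal. S100a10 is an exception to the calcium rule, since it lacks working calcium sites and forms a tetramer with annexin A2 at the cell surface that binds tissue plasminogen activator. S100a11 is the usual partner of annexin A1. S100b is made in large amounts by astrocytes and is measured in blood as a marker of brain injury, and galectin-1 is a lectin that binds galactose-containing sugars on glycoproteins.

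Upstream sequences are shown for S100a4, Anxa1 and Anxa2, the genes of the set in which a TATA motif was found, and for S100b, the most abundant of the 9, in which none was found. Of the 9 genes, 7 had an entry in the RefSeq promoter table of rat build GRCr8, and S100a10 and Lgals1 had none. Each stretch below is the last 150 bases before the start that the table uses, read 5′ to 3′ on the strand of the gene, and capitals mark the TATA motif (TATAAA) or the AP-1 motif (TGANTCA).
S100a4, chr2:178388379-178388528, plus strand: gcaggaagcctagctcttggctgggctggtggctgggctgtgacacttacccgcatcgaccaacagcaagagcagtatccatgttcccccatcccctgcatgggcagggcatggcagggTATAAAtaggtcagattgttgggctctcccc
Anxa1, chr1:227303733-227303882, minus strand: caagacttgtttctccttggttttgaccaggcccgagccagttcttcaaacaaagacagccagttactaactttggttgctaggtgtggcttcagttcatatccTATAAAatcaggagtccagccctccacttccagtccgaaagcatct
Anxa2, chr8:78986102-78986251, plus strand: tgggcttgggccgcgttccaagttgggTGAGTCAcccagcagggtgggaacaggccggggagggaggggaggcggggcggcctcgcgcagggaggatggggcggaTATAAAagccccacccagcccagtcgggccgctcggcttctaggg
S100b, chr20:12381082-12381231, minus strand: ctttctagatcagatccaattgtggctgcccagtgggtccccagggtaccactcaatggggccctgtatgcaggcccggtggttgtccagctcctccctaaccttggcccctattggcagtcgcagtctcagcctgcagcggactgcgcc

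The TATA motif lay 31 bases before the start of S100a4, 46 bases before that of Anxa1 and 45 bases before that of Anxa2. It was found in 3 of the 7 genes with an entry, and in 12.9% of all 33469 promoters over the same 250 upstream bases on either strand. The AP-1 motif, bound by Fos and Jun proteins, was found in Anxa2 alone, 123 bases before its start, and in 6.34% of all promoters. A STAT motif (TTCNNNGAA), held by 7.67% of all promoters, was in none of the 7. The GC box (GGGCGG), held by 30.5% of all promoters, was in 4 of the 7 (S100a6, S100a11, Anxa2 and Anxa3) and overlapped no TATA or AP-1 match. These matches describe letters in the windows and not sites in use. In the same annotation S100a4 and S100a6 were neighbours separated by S100a5, and S100a10 and S100a11 were neighbours separated by a pseudogene. S100a11 had 7 look-alike entries, and S100a10, Anxa2 and Lgals1 had 1 each, so reads of these genes could have been split between copies. S100b overlapped Dip2a, and whether the counting used strand was not given in the sources used here.

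In sham cortex S100b was far above the other genes. Its level was 768 ± 116 FPKM (mean ± SD, n = 6), a scale that corrects fragment numbers for transcript length and library size, against 23.1 ± 9.03 FPKM for S100a10, the next in order. Below it came Anxa3 at 18.6 ± 4.63 FPKM, Lgals1 at 14.4 ± 3.18 FPKM and Anxa2 at 13.6 ± 2.65 FPKM, and each of these overlapped its neighbour in range over the 6 libraries. Anxa2 lay clear of Anxa1, which had 4.65 ± 1.24 FPKM. The last 3 were S100a11 with 3.70 ± 1.34 FPKM, S100a6 with 1.97 ± 0.458 FPKM and S100a4 with 1.76 ± 0.600 FPKM, again with overlapping ranges. S100b remained the highest of the 9 in all 18 libraries, and after SAH no other neighbours in the order of mean levels had separate ranges. At SAH 1d S100a10 (76.9 ± 47.0 FPKM) and Anxa2 (67.4 ± 76.3 FPKM) were next to S100b, and S100a6 (10.9 ± 6.47 FPKM) was the lowest.

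**Figure D1:**
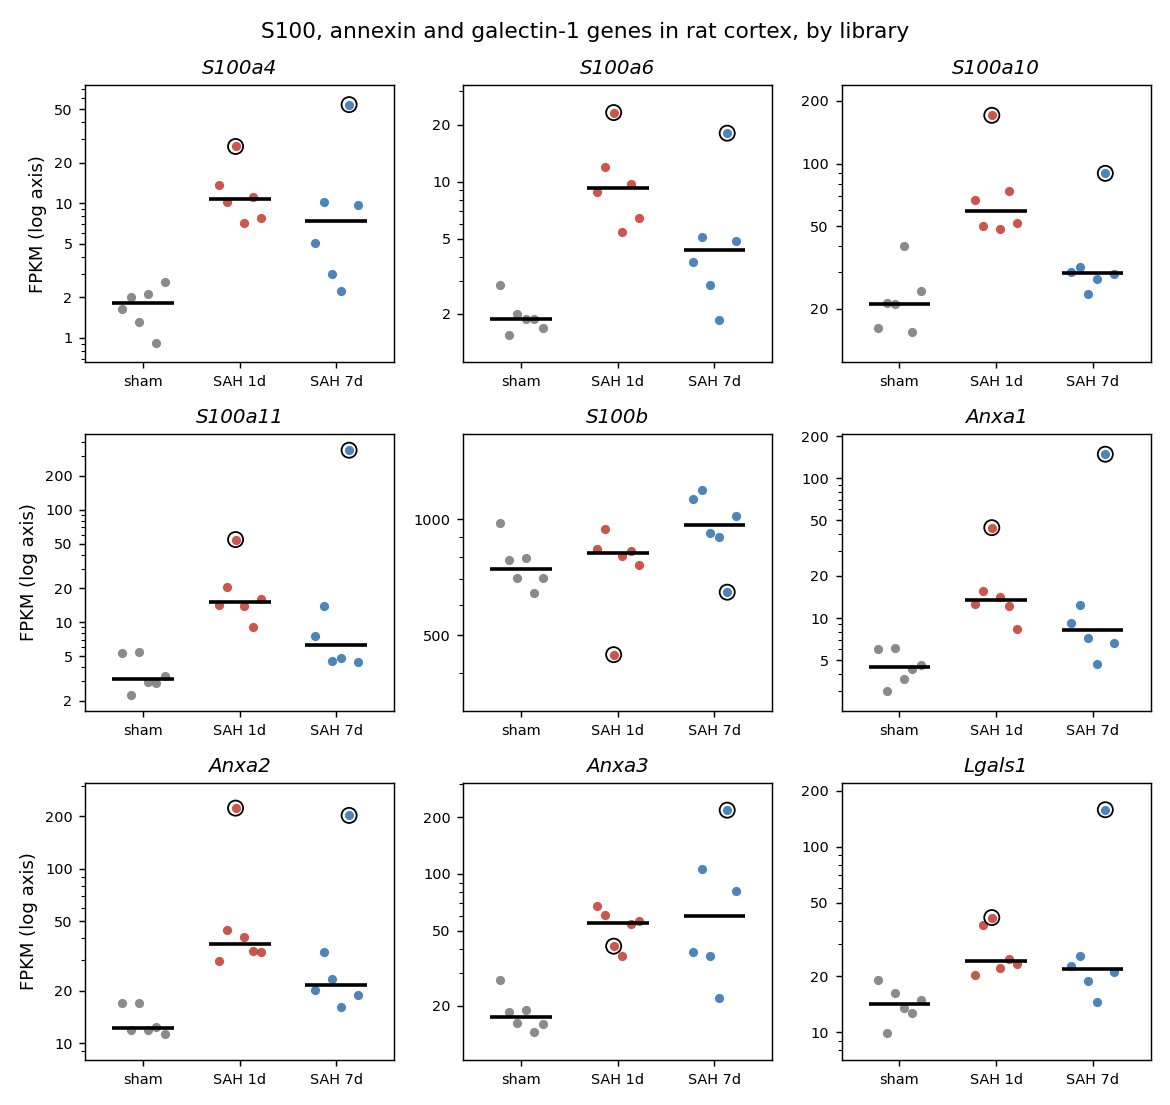
Level of each of the 9 genes in FPKM (log axis, scaled for each gene) in every library of each group, with 1 point per library and the group median as a line. Open rings mark SAH 7d-5 and SAH 1d-3; for S100a11, SAH 7d-5 lies at 338 FPKM, while the other SAH 7d libraries lie between 4.43 and 14.1 FPKM.

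Libraries SAH 7d-5 and SAH 1d-3 stood apart from their groups, so the fold changes of the 9 genes against sham are given with and without them. Both were singled out from the levels that are tested here. Leaving out an extreme library narrows the spread by construction, so a smaller p without it is no independent support. SAH 1d-3 held the highest level of its group for 7 of the 9 genes and the lowest for 1, S100b. SAH 7d-5 held the highest level of its group for 8 genes and again the lowest for S100b. The summed level of 7 monocyte and macrophage markers was 646 CPM in SAH 1d-3 and 8846 CPM in SAH 7d-5, where the highest sham library had 96.0 CPM. In bulk tissue, a change in the number of cells of a type and a change in RNA per cell cannot be told apart.

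At SAH 1d, 8 of the 9 genes were higher than in sham, and S100b was the exception. The test was the quasi-likelihood F test of edgeR on counts with Benjamini-Hochberg adjustment over all tested genes, and a gene is said to have risen or fallen where the adjusted p was under 0.05. Over all genes tested, 14.9% rose by this rule. With a log2 fold change of at least 1 added to the rule, 7 of the 9 were higher, and 5.57% of all genes. With the 18 libraries of the 3 groups in one fit, 5 of the 9 genes rose, and 8.18% of all genes. Without SAH 1d-3 it was again 8 of the 9, and 15.4% of all genes. The median log2 fold change of the 9 genes was 1.83, and that of all genes tested was 0.00856. In CPM, the SAH 1d and sham libraries did not overlap for 7 of the 9 genes (S100b and Lgals1 overlapped), against 7.89% of all genes with every SAH 1d library above every sham library.

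S100a4, an S100 protein that binds non-muscle myosin and is known from migrating cells, rose the most. Its sham libraries ran from 0.925 to 2.59 FPKM with a median of 1.81 FPKM, and its SAH 1d libraries ran from 7.18 to 26.4 FPKM with a median of 10.7 FPKM. The lowest SAH 1d library was thus above the highest sham library, and the top value was that of SAH 1d-3. The log2 fold change was 2.73 ± 0.35 (SE, adjusted p = 0.000273 by edgeR), and 2.37 ± 0.25 without SAH 1d-3 (adjusted p = 3.69e-05).

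S100a6, also called calcyclin and seen in dividing and reactive cells, went from a sham range of 1.55 to 2.85 FPKM (median 1.88 FPKM) to a SAH 1d range of 5.41 to 23.2 FPKM (median 9.26 FPKM). All 6 SAH 1d libraries were above all 6 sham libraries. Its log2 fold change was 2.33 ± 0.34 (adjusted p = 0.000667 by edgeR), and 1.94 ± 0.23 (adjusted p = 9.1e-05) without SAH 1d-3.

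S100a11 and its partner Anxa1 both rose, and both had their highest SAH 1d value in SAH 1d-3. S100a11 was between 2.27 and 5.40 FPKM in sham (median 3.14 FPKM) and between 9.16 and 54.3 FPKM in SAH 1d (median 15.2 FPKM), a log2 fold change of 2.39 ± 0.43 (adjusted p = 0.00203 by edgeR). Anxa1 was between 3.03 and 6.15 FPKM in sham (median 4.49 FPKM) and between 8.31 and 44.3 FPKM in SAH 1d (median 13.4 FPKM), a log2 fold change of 1.83 ± 0.37 (adjusted p = 0.00431 by edgeR). Neither gene had a SAH 1d library within its sham range. The calls of these genes were lost in the fit of 18 libraries, with adjusted p = 0.111 for S100a11 and adjusted p = 0.105 for Anxa1, and without SAH 1d-3 they held, with log2 fold changes of 1.84 for S100a11 and 1.31 for Anxa1. The ratio of Anxa1 to S100a11 in FPKM was 1.29 ± 0.144 in sham, 0.889 ± 0.279 at SAH 1d and 1.09 ± 0.424 at SAH 7d (mean ± SD over 6 libraries each), described here with no test.

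The tetramer partners S100a10 and Anxa2 rose as well. S100a10 went from a sham range of 15.5 to 40.2 FPKM (median 21.2 FPKM) to a SAH 1d range of 48.6 to 171 FPKM (median 59.4 FPKM), and its highest sham value was that of sham-4 alone, the next sham library being at 24.4 FPKM. Its log2 fold change was 1.63 ± 0.34 (adjusted p = 0.00486 by edgeR). Anxa2 went from 11.3 to 17.0 FPKM (median 12.2 FPKM) to 29.6 to 223 FPKM (median 37.1 FPKM), with 5 of the 6 SAH 1d libraries at or below 44.8 FPKM and SAH 1d-3 at 223 FPKM. Its log2 fold change of 2.21 ± 0.50 (adjusted p = 0.00708 by edgeR) was 1.29 ± 0.15 (adjusted p = 5.55e-05) without SAH 1d-3, so that the size and the error were both smaller with that library left out. For S100a10 the value without SAH 1d-3 was 1.21 ± 0.22 (adjusted p = 0.00155). The ratio of Anxa2 to S100a10 in FPKM was 0.662 ± 0.273 in sham and 0.763 ± 0.324 at SAH 1d, and the ranges of the groups overlapped.

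Anxa3, an annexin expressed in microglia and myeloid cells, rose without an extreme SAH 1d library. Sham ran from 14.5 to 27.4 FPKM (median 17.3 FPKM) and SAH 1d from 36.8 to 67.7 FPKM (median 55.1 FPKM), and SAH 1d-3 was at 41.4 FPKM, in the lower part of its group. The log2 fold change was 1.39 ± 0.18 (adjusted p = 0.000309 by edgeR), and 1.45 ± 0.18 (adjusted p = 0.000106) without SAH 1d-3. Of the 8 rising genes, Anxa3 alone had a value that was not lowered by leaving SAH 1d-3 out. The highest sham value was that of sham-1, which stood apart from its group, and without sham-1 the log2 fold change was 1.57.

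Lgals1 rose the least of the 8. Its levels were 9.96 to 19.2 FPKM in sham (median 14.2 FPKM) and 20.5 to 41.5 FPKM in SAH 1d (median 24.1 FPKM), so the groups did not overlap in FPKM, and 5 of the 6 SAH 1d libraries were above all sham libraries in CPM. The log2 fold change was 0.85 ± 0.21 (adjusted p = 0.0122 by edgeR), under the limit of 1, and the call was lost in the fit of 18 libraries (adjusted p = 0.231). Without SAH 1d-3 it was 0.70 ± 0.19 (adjusted p = 0.0146).

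S100b, the astrocyte S100 gene, had values in the sham range in 5 of 6 SAH 1d libraries. Sham ran from 646 to 976 FPKM (median 744 FPKM) and SAH 1d from 446 FPKM in SAH 1d-3 to 946 FPKM (median 816 FPKM). Its log2 fold change was -0.12 ± 0.16 (adjusted p = 0.610 by edgeR), although the median in FPKM was 1.10 times the sham median, so no direction can be given. Without SAH 1d-3 the log2 fold change was -0.0062 ± 0.11 (adjusted p = 0.974).

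**Figure D2:**
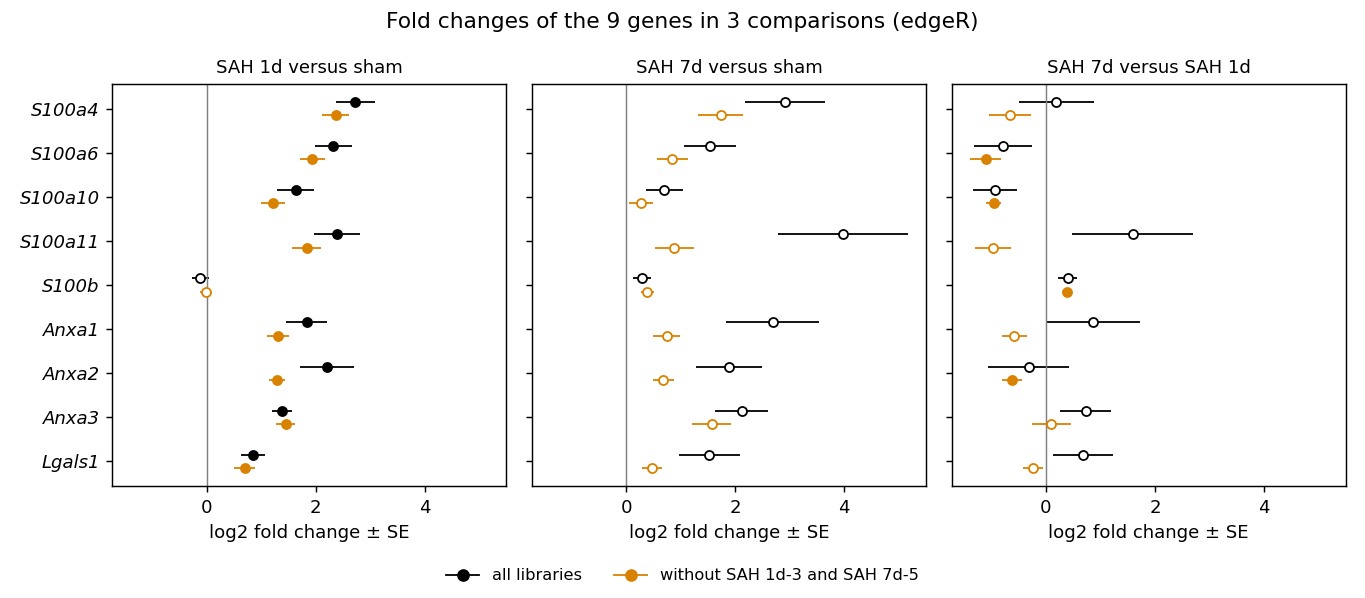
Log2 fold change with its SE (edgeR) of each of the 9 genes in SAH 1d versus sham, SAH 7d versus sham and SAH 7d versus SAH 1d, with all libraries (black) and without SAH 7d-5 and SAH 1d-3 (orange). Filled points have an adjusted p under 0.05: 8 of 9 genes in SAH 1d versus sham with either set, none in SAH 7d versus sham, and 4 in SAH 7d versus SAH 1d only where both libraries are left out.

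At SAH 7d the levels of most genes were above sham in most libraries, but the spread among the SAH 7d libraries was wide and no gene passed the test. By edgeR 0 of the 9 genes were called, and 0 of all 18444 genes (0%). At an unadjusted p under 0.05, 2842 genes or 15.4% of those tested differed. Of the 9 genes, 7 had such a p with a higher level, as had 11.7% of all genes. The fitted log2 fold changes of all 9 genes were above 0, with a median of 1.88 against -0.00385 for all genes tested. SAH 7d-5 set much of their size. With it they ran from 0.28 for S100b to 3.97 for S100a11, and without it from 0.27 for S100a10 to 1.73 for S100a4. The DESeq2 Wald test, the other count model run, called 459 of the 17916 genes to which it gave an adjusted p, 2.27% of them as higher. It gave 5 of the 9 genes an adjusted p and called 2 of these as higher, S100a4 with a log2 fold change of 2.92 (adjusted p = 0.00204) and Anxa3 with a log2 fold change of 2.12 (adjusted p = 0.00143), and no adjusted p was given for S100a11, Anxa1, Anxa2 and Lgals1.

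Anxa3 had a SAH 7d median 3.45 times that of sham, above its SAH 1d ratio of 3.18 times. Its SAH 7d libraries ran from 22.1 to 218 FPKM with a median of 59.8 FPKM, and the 5 besides SAH 7d-5 were at 22.1, 36.9, 38.5, 81.1 and 106 FPKM. In 5 of 6 libraries it was above the highest sham library, whereas SAH 7d-4 fell in the sham range. The log2 fold change was 2.12 ± 0.49 (adjusted p = 0.214 by edgeR) and 1.57 ± 0.35 (adjusted p = 0.118) without SAH 7d-5.

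S100a4 had a median of 7.41 FPKM at SAH 7d, 4.09 times the sham median, and ran from 2.24 FPKM in SAH 7d-4 to 54.0 FPKM in SAH 7d-5. Here too 5 of 6 libraries were above all sham libraries. Its log2 fold change was 2.92 ± 0.73 (adjusted p = 0.214 by edgeR) and 1.73 ± 0.41 (adjusted p = 0.118) without SAH 7d-5. S100a6 had a median of 4.33 FPKM (range 1.85 to 18.1 FPKM) and a log2 fold change of 1.54 ± 0.48 (adjusted p = 0.223 by edgeR), or 0.85 ± 0.28 (adjusted p = 0.218) without SAH 7d-5.

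S100a11 and Anxa1 were the genes whose SAH 7d means rested most on a single library. In SAH 7d-5 S100a11 reached 338 FPKM, 76.4 times the lowest SAH 7d library, and the mean over the other 5 libraries was 7.10 ± 4.12 FPKM against 62.3 ± 135 FPKM over all 6. Its log2 fold change of 3.97 ± 1.20 (adjusted p = 0.216 by edgeR) was 0.88 ± 0.36 (adjusted p = 0.328) without SAH 7d-5. Anxa1 reached 148 FPKM in SAH 7d-5 and lay between 4.67 and 12.3 FPKM in the other 5, with a log2 fold change of 2.69 ± 0.85 (adjusted p = 0.224 by edgeR) with SAH 7d-5 and 0.74 ± 0.25 (adjusted p = 0.234) without it. The ratio of Anxa1 to S100a11 was 0.439 in SAH 7d-5 and between 0.876 and 1.58 in the other SAH 7d libraries, so S100a11 was raised more than its partner there.

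Anxa2 and Lgals1 followed the same pattern with a smaller spread. Anxa2 was at 202 FPKM in SAH 7d-5 and between 16.1 and 33.6 FPKM in the others, with a log2 fold change of 1.88 ± 0.61 (adjusted p = 0.230 by edgeR). Lgals1 was at 158 FPKM in SAH 7d-5 and between 14.6 and 25.8 FPKM in the others, with a log2 fold change of 1.53 ± 0.56 (adjusted p = 0.261 by edgeR). Without SAH 7d-5 these values were 0.68 for Anxa2 and 0.47 for Lgals1. S100a10 was closest to sham among the genes that had risen at SAH 1d, with a median of 29.8 FPKM, 1.41 times that of sham, 1 of 6 libraries above all sham libraries and a log2 fold change of 0.70 ± 0.34 (adjusted p = 0.344 by edgeR), or 0.27 ± 0.21 (adjusted p = 0.642) without SAH 7d-5. The ratio of Anxa2 to S100a10 was 2.25 in SAH 7d-5 and between 0.578 and 1.06 in the other SAH 7d libraries.

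S100b had its highest median at SAH 7d, 969 FPKM, or 1.30 times that of sham. Its libraries ran from 647 FPKM in SAH 7d-5 to 1190 FPKM in SAH 7d-2, with 3 of 6 above all sham libraries in FPKM and 2 of 6 in CPM. The log2 fold change was 0.28 ± 0.16 (adjusted p = 0.395 by edgeR) and 0.39 ± 0.12 (adjusted p = 0.205) without SAH 7d-5.

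**Figure D3:**
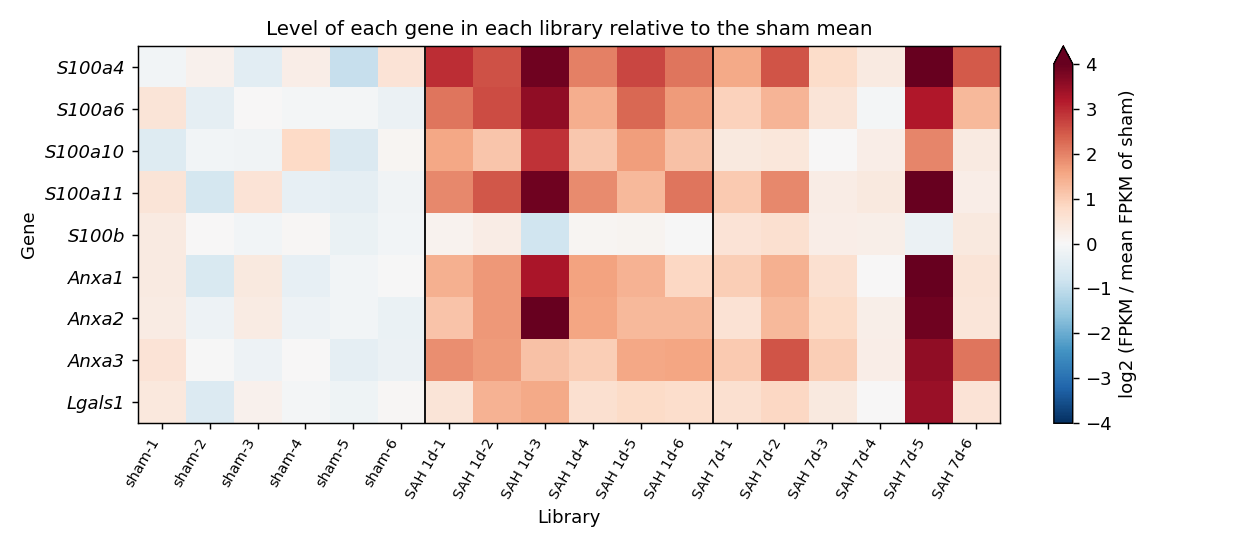
Level of the 9 genes (rows) in the 18 libraries (columns) as the log2 of FPKM over the mean FPKM of sham, with red above and blue below the sham mean and colours saturated beyond 4. Rows other than S100b are red across SAH 1d and, apart from S100a6 in SAH 7d-4, above the sham mean across SAH 7d, where SAH 7d-5 is darkest and SAH 7d-4 is lowest for 6 genes.

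The comparison of SAH 7d with SAH 1d asks which of the genes had moved between these times. With all libraries 0 of the 9 genes passed the test, and 1.37% of all genes did. The log2 fold change was -0.94 ± 0.41 for S100a10 (adjusted p = 0.305 by edgeR), -0.78 ± 0.53 for S100a6 (adjusted p = 0.533) and -0.32 ± 0.75 for Anxa2 (adjusted p = 0.889). It was above 0 for the other 6 genes, among them 1.59 ± 1.11 for S100a11 (adjusted p = 0.543) and 0.40 ± 0.18 for S100b (adjusted p = 0.331). For S100a4, S100a11 and Anxa1 the sign depended on the fit, since limma on log2(FPKM + 1) put them below 0, S100a11 at -0.43 (adjusted p = 0.882), as did edgeR with the replicate number as a block, S100a11 at -0.88 (adjusted p = 0.823).

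This comparison depended on which libraries entered it. SAH 7d-5 had the highest SAH 7d level for 8 of the 9 genes, so leaving it out lowers their SAH 7d level by construction. The calls below thus rest on a choice of libraries made from the tested values. Without SAH 7d-5, S100a10 (log2 fold change -1.38, adjusted p = 0.0245) and S100a6 (-1.50, adjusted p = 0.0386) were lower at SAH 7d by edgeR, as were 5.19% of all genes. With SAH 1d-3 also left out, 3 of the 9 genes were lower, against 7.49% of all genes, and 1 was higher, against 6.13% of all genes. The lower genes were S100a10 at -0.96 ± 0.14 (adjusted p = 0.00155), S100a6 at -1.11 ± 0.29 (adjusted p = 0.0270) and Anxa2 at -0.62 ± 0.18 (adjusted p = 0.0381), and the higher gene was S100b at 0.38 ± 0.09 (adjusted p = 0.0166). In these 16 libraries Anxa3 was at 0.10 ± 0.35 (adjusted p = 0.888), with means of 55.1 ± 11.5 FPKM at SAH 1d and 56.9 ± 35.1 FPKM at SAH 7d. S100a11, S100a4, Anxa1 and Lgals1 turned from values above 0 to values below 0, and none of them passed the test either way (adjusted p = 0.0713 for S100a11).

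The other genes of the families and the known partners of these proteins came from lists of 11 further S100 genes, 9 further annexins, 8 further galectins and 12 partners and receptors. In SAH 1d versus sham 13 of the 26 genes tested in these lists rose and 1 fell. Lgals3, galectin-3, a lectin of activated microglia and macrophages, exceeded all 9 genes in its change, with 1.04 to 2.92 CPM in sham, 24.0 to 92.0 CPM in SAH 1d and a log2 fold change of 4.43 ± 0.40 (adjusted p = 2.31e-05 by edgeR), or 3.98 ± 0.23 (adjusted p = 4.1e-07) without SAH 1d-3. At SAH 7d it ran from 3.41 CPM to 530 CPM in SAH 7d-5 and was not called against sham, with a log2 fold change of 5.69 (adjusted p = 0.214), or 2.07 (adjusted p = 0.109) without SAH 7d-5.

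Of the further S100 genes, 2 of 5 tested rose at SAH 1d. S100a3, which lies among the S100 genes of the same cluster, had a log2 fold change of 0.82 ± 0.26 (adjusted p = 0.0350 by edgeR). S100a9, a subunit of calprotectin from neutrophils and monocytes, had 3.98 ± 1.13 (adjusted p = 0.0213), but its SAH 1d libraries had a median of 1.20 CPM and SAH 1d-3 had 30.5 CPM, and without that library its log2 fold change was 2.01 ± 0.74 and the call was lost (adjusted p = 0.0576). Of the further annexins, 3 of 6 tested rose (Anxa4 at 0.72, Anxa7 at 0.47 and Anxa8 at 1.12). Anxa8 was low, with a mean of 0.441 CPM in sham and 0.959 CPM in SAH 1d. Anxa6, an annexin with a duplicated core, fell by 0.34 on the log2 scale (adjusted p = 0.0284 by edgeR). The calls of Anxa4 (adjusted p = 0.121) and Anxa6 (adjusted p = 0.157) were lost in the fit of 18 libraries. Anxa5, the annexin used to stain dying cells, had 0.23 ± 0.12 (adjusted p = 0.185). Of the further galectins, 2 of 5 tested rose, Lgals3 and Lgals8, the latter by 0.35 ± 0.08 (adjusted p = 0.00955).

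Of the partners and receptors, 6 of 10 tested rose at SAH 1d. These were Plaur, the urokinase receptor (2.42 ± 0.55, adjusted p = 0.00781 by edgeR), Pla2g4a, the cytosolic phospholipase A2 that annexin A1 is known to inhibit (1.54 ± 0.19, adjusted p = 0.000170), Tlr4 (1.05 ± 0.33, adjusted p = 0.0319), Plat, the tissue plasminogen activator bound by the S100a10 tetramer (1.00 ± 0.30, adjusted p = 0.0254), Myh9, the myosin heavy chain bound by S100a4 (0.93 ± 0.22, adjusted p = 0.00853), and Ahnak, a large scaffold bound by the same tetramer (0.70 ± 0.18, adjusted p = 0.0136). Leaving out SAH 1d-3 lowered these values to 1.40 for Plaur, 0.67 for Tlr4 and 0.63 for Plat, with the calls held. In the fit of 18 libraries 1 further S100 gene, 2 further annexins, 1 further galectin and 2 partners rose, and 0 fell. In that fit 8.18% of all genes rose. Ager, the receptor RAGE that binds S100 proteins, had 0.98 ± 0.35 (adjusted p = 0.0561), and Plg, plasminogen, had 1.58 ± 0.57 (adjusted p = 0.0573). Without SAH 1d-3 both were called by edgeR, Ager at 1.14 ± 0.31 (adjusted p = 0.0157) and Plg at 1.80 ± 0.49 (adjusted p = 0.0148). That made 8 of 10 partners and receptors, against 15.4% of all genes. SAH 1d-3 was the lowest SAH 1d library for both (0.913 CPM for Ager, 0.254 CPM for Plg), so leaving it out raises them by construction. Plg was low in sham, with a median of 0.454 CPM. Fpr2, a receptor of annexin A1, was too low to be tested, and it was chosen for mention after its values were seen, at most 0.0379 CPM in sham and 0.105 to 0.358 CPM in SAH 1d. In SAH 7d versus sham no gene of these lists was called, nor was any other gene. In SAH 7d versus SAH 1d Plg alone fell, by 1.86 on the log2 scale (adjusted p = 0.0391 by edgeR), and 1.08% of all genes fell. Without SAH 7d-5 and SAH 1d-3, the genes of these lists that were lower at SAH 7d than at SAH 1d were S100a9, Lgals3, Plg, Plaur and Ager. Of all genes, 7.49% were lower in that setting.

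**Figure D4:**
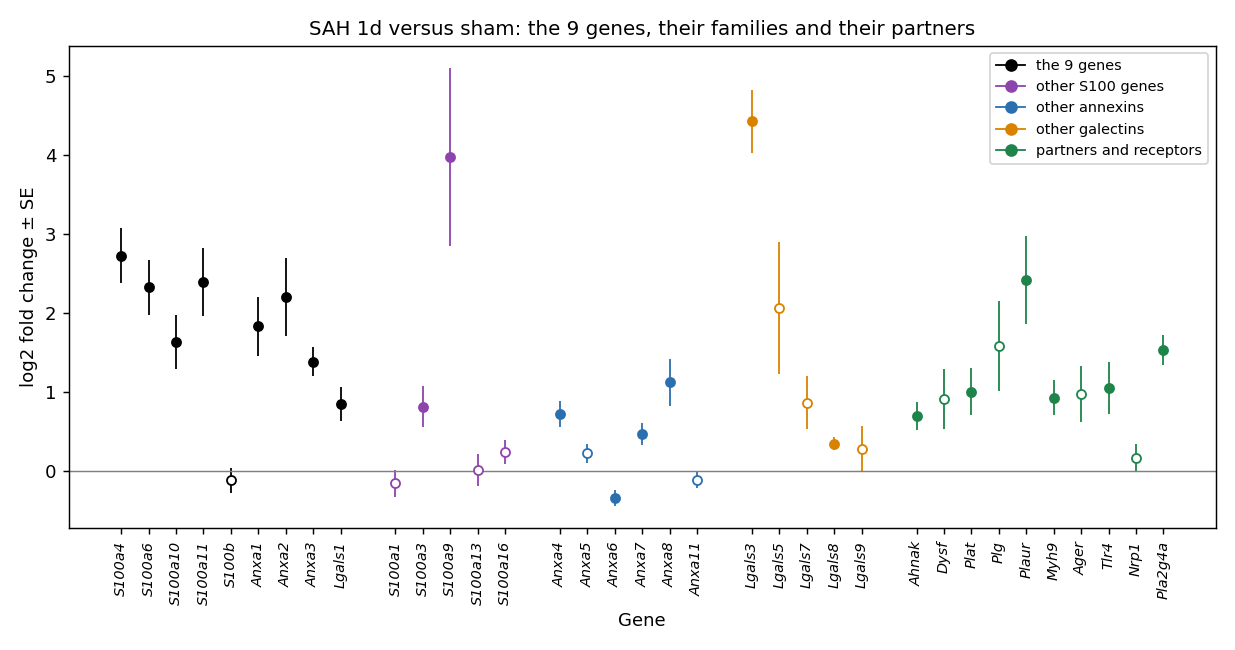
Log2 fold change with its SE (edgeR) in SAH 1d versus sham for the 9 genes and for every tested gene of the lists of further S100 genes, annexins, galectins and partners and receptors. Filled points have an adjusted p under 0.05, and Lgals3 at 4.43 is the highest point.

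Markers of other cell types moved with these genes at SAH 1d. Of 8 reactive astrocyte markers tested 8 rose, and their summed level was 376 to 706 CPM in sham, 2746 to 5482 CPM in SAH 1d and 643 to 4304 CPM in SAH 7d. Of 7 monocyte and macrophage markers tested 5 rose, with sums of 52.2 to 96.0 CPM in sham and 116 to 646 CPM in SAH 1d. Of 8 neuron markers 7 fell, with sums of 5727 to 6981 CPM in SAH 1d. Of 6 choroid plexus markers 3 rose, and without SAH 1d-3 5 of the 6 rose, against 15.4% of all genes. The summed level of these markers was 1076 CPM in SAH 1d-6 and 744 CPM in SAH 1d-4. It was at most 43.1 CPM in the other SAH 1d libraries and at most 71.9 CPM in sham. The remaining lists each had at most 1 gene higher and 2 lower at SAH 1d. Microglia had 1 higher and 1 lower of 7, and astrocytes had 0 higher and 2 lower of 7. Oligodendrocytes, endothelium, mural cells, meningeal fibroblasts and neutrophils had 1 higher each, and red cells had 0. Without SAH 1d-3, 4 of the 7 microglia markers rose and 1 fell. Of 8 neutrophil markers 2 could be tested, and Ltf was at 0 in every library. In SAH 7d-5 the sums were 3627 CPM for microglia and 4387 CPM for meningeal fibroblasts, against at most 524 and 512 CPM in sham, and 2816 CPM for neurons. In the fit of 18 libraries 7 reactive astrocyte markers and 3 monocyte and macrophage markers rose and 1 neuron marker fell. In that fit 8.18% of all genes rose. The part of these cell types in the levels of the 9 genes was not tested.

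Across the 18 libraries the 8 genes other than S100b varied together. Over their 28 pairs the Pearson correlation of log2 CPM ran from 0.549 (S100a10 and Anxa3) to 0.977 (S100a11 and Anxa1) with a median of 0.863. Over the 16 libraries without SAH 7d-5 and SAH 1d-3 it ran from 0.514 to 0.941 with a median of 0.803. S100b had a negative correlation with 7 of the 8 others over 18 libraries and with 1 of the 8 over 16 libraries. These points share libraries, depth and the 3 groups, so the values describe the data only.

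Among all tested genes with a symbol, those whose log2 CPM was most like each of the 9 over the 18 libraries were listed in the same way, 3 for each. S100a4 was most like Pla2g4a (r = 0.972), followed by Batf and Plek, and S100a6 was most like Clic1 (r = 0.977), followed by Slc1a5 and LOC108348048. For S100a10 the list was Zfp410 (r = 0.946), Stat3 and Flnc, and for S100a11 it was Gpx8 (r = 0.981), Anxa1 and Plin3. Anxa1 in turn had S100a11 (r = 0.977), Dram1 and Plin3. Anxa2 was most like Plin2 (r = 0.987), Tpm4 and Chsy1. Anxa3 was most like Ly86 (r = 0.984), Lat2 and Ptpn6, and Lgals1 was most like LOC100360087 (r = 0.972), Ftl1 and Tln1. S100b had the lowest best match, Mxi1 (r = 0.923), before Psat1 and LOC108348061. With the 2 libraries farthest from the median of each gene left out, these first matches ran from r = 0.822 for S100b and Mxi1 to r = 0.971 for Anxa3 and Ly86.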

How the data were processed

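RNA was sequenced from 18 cortex libraries after preparation with an NEBNext Ultra kit. The authors deposited a table of raw read counts per gene and a table of FPKM values, the latter scaled by the authors to gene length and library size. The study's methods name the rat assembly Rnor_6.0, the submitters' processing notes name fastp, HISAT2 and DESeq2 1.16.1 and a mouse build (mm9) that does not match the rat gene identifiers, and a label calls the animals mice. The counting program is not named in these sources. Of the 30735 rows, 8685 carry new-gene names in place of annotated identifiers.

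Counts were tested with edgeR 4.0.16 (R 4.3.3): filterByExpr on the 18 libraries, TMM, and the quasi-likelihood F test on the 12 libraries of each comparison. The adjusted p threshold is 0.05 and, where named, a log2 fold change of at least 1. The SE is the log2 fold change over the root of F. The fits were tested on simulated counts first. FPKM serves for levels, and CPM for overlap and marker sums. Likeness uses log2 CPM with a prior count of 2. Alternatives were DESeq2 1.42.0, limma 3.58.1 on log2(FPKM + 1) or log2(FPKM + 0.1), no filter, all 18 libraries, a replicate block and left-out libraries. A robust edgeR fit, and the other 2 sets of libraries for the family lists, were chosen after seeing the data.

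The text names all 9 genes, the family and partner genes called in SAH 1d versus sham or SAH 7d versus SAH 1d, and the 3 genes most like each of the 9; Anxa5, Ager and Fpr2 were named after their values were seen. The genes and lists were chosen with earlier results of these data known. Group p-values measure the spread between rats.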

Additional observations from a re-analysis of the deposited data

Results flagged for a closer look

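Each of the 27 sets of 6 FPKM values (9 genes in 3 groups) was checked for a highest or lowest library whose gap to the next, as a share of the whole range, was over Dixon's critical value, a limit that chance passes in about 1 of 20 sets. It was passed in 17 sets, which are not independent, since 7 are SAH 1d-3 and 7 are SAH 7d-5.

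SAH 1d-3 stood apart for 7 genes. It was high for S100a4 (26.4 FPKM), S100a6 (23.2 FPKM), S100a10 (171 FPKM), S100a11 (54.3 FPKM), Anxa1 (44.3 FPKM) and Anxa2 (223 FPKM), and low for S100b (446 FPKM). SAH 7d-5 was high for 7 genes, S100a4 (54.0 FPKM), S100a6 (18.1 FPKM), S100a10 (89.7 FPKM), S100a11 (338 FPKM), Anxa1 (148 FPKM), Anxa2 (202 FPKM) and Lgals1 (158 FPKM). In sham, sham-1 was high for S100a6 (2.85 FPKM) and Anxa3 (27.4 FPKM), and sham-4 was high for S100a10 (40.2 FPKM). Anxa3 is the one gene of the 9 for which neither SAH 1d-3 nor SAH 7d-5 passed the limit, at 41.4 and 218 FPKM.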

How the results depend on the processing

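In SAH 1d versus sham 8 of the 9 genes were called in 20 of 22 alternatives, the replicate block included. With all 18 libraries in one fit 5 were called, of 2462 genes in place of 4684, and DESeq2, which gave no adjusted p for Anxa2, called 7. Leaving out single libraries kept 8, with 3517 to 5252 genes. In SAH 7d versus sham DESeq2 called 2 of the 9 and 459 genes, the fit of all 18 libraries 9 genes, limma without a filter 1 gene, and leaving out single libraries 0 to 3 genes (3 without SAH 7d-4). In SAH 7d versus SAH 1d, where edgeR called 252 genes, DESeq2 called 1012, the fit of all 18 libraries 779, limma 406 (403 with a pseudocount of 0.1, 474 without a filter), and single left-out libraries gave 102 (without SAH 7d-2) to 1545 genes (without SAH 7d-5) and 0 to 2 of the 9 genes. Without SAH 7d-5 and SAH 1d-3 4 of the 9 and 2512 genes were called. The cause of these differences was not tested.

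Reversals occurred in SAH 7d versus SAH 1d. The log2 fold changes of S100a4, S100a11 and Anxa1 became -0.49, -0.43 and -0.23 by limma on log2(FPKM + 1), with or without the filter, and -0.60, -0.52 and -0.28 with the pseudocount of 0.1. With single libraries left out the range was -1.02 to 0.56 for S100a4, -1.53 to 2.15 for S100a11, -1.11 to 1.39 for Anxa1, -1.55 to 0.60 for Anxa2 and -0.40 to 0.86 for Lgals1. The lowest values were those without SAH 7d-5, and that of 0.60 for Anxa2 was without SAH 1d-3. Without both libraries they were -0.65, -0.97 and -0.58, and Lgals1 was -0.24.

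With the replicate number as a block, S100a4, S100a11 and Anxa1 were at -0.55, -0.88 and -0.39, and 29 genes in place of 252 were called in SAH 7d versus SAH 1d, with 0 of the 9. Over genes, deviations of same-numbered libraries correlated at -0.047 to 0.066 for SAH 1d and sham, -0.219 to 0.084 for SAH 7d and sham, and -0.252 to 0.197 for SAH 7d and SAH 1d. Differently numbered libraries were not compared in this way, so these values cannot exclude a pairing.

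Folds of the mean level over sham moved by less than 1 SD when CPM was used in place of FPKM. Mean levels also moved by less than 1 SD with a library left out, but SAH 7d-5 itself sets much of that SD: without it the SAH 7d mean went from 62.3 to 7.10 FPKM for S100a11 and from 31.4 to 8.01 FPKM for Anxa1.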

Other observations

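Within SAH 7d, SAH 7d-4 held the lowest level for 6 of the 9 genes. SAH 7d-2 was the second highest library for every gene other than S100b, among them Anxa3 (106 FPKM), Anxa2 (33.6 FPKM), S100a11 (14.1 FPKM) and Anxa1 (12.3 FPKM). For S100b it was the highest (1190 FPKM). With SAH 7d-5 left out, the SAH 7d levels spread 4.79 times from lowest to highest for Anxa3 and 4.54 times for S100a4, but 1.34 times for S100a10, 1.32 times for S100b and 1.77 times for Lgals1. At SAH 1d without SAH 1d-3 the spread was between 1.25 times for S100b and 2.25 times for S100a11. These are values of single libraries with no test.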
